A study of Mus musculus with 10 samples.

Results

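This account covers 10 genes of the NF-kB pathway in mouse pancreatic tumour epithelium: the subunit genes Nfkb1, Nfkb2, Rela and Relb, the feedback inhibitors Nfkbia and Tnfaip3, and the induced genes Tnfaip2, Birc3, Icam1 and Sod2. They were taken by gene symbol, and all 10 were found among the 15624 genes of the count table. All 10 also passed the filter on low counts, which left 13006 genes for testing. RNA came from tumour epithelium of KPFSR mice, cut from frozen sections by laser capture. Animals with established pancreatic ductal adenocarcinoma had been given tamoxifen (n = 6 libraries) or corn oil, the vehicle (n = 4 libraries). From knowledge of the model and not from the labels, both groups carry the same Flp-activated tumour-driving alleles in the pancreas, among them Trp53, a floxed Slc7a11 and a tamoxifen-activated Cre expressed from the Rosa26 locus in all tissues. Tamoxifen is known to delete Slc7a11 in this model, so effects of the agent and of the deletion cannot be told apart. Age, dose and time after treatment are not in the labels, and the labels do not tie libraries to animals. The p-values therefore measure the spread between these libraries, and they are too small if libraries of a group share an animal.

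NF-kB is a family of transcription factors that act as dimers. In the canonical route, receptors for tumour necrosis factor, interleukin 1 and bacterial products activate the IKK kinase, which marks the inhibitor IkB-alpha for destruction and frees dimers of RelA and p50. In the alternative route the kinase NIK drives processing of p100 to p52, the partner of RelB. Active NF-kB induces its own brakes, IkB-alpha and A20, so transcripts of these genes are commonly used as readouts of the pathway. NF-kB activity is a known feature of pancreatic tumours.

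The promoter sequences of these genes show which of them carry the letters of an NF-kB motif near the start. A search for the kB consensus, the DNA motif that NF-kB binds, covered both strands of RefSeq promoter windows (GRCm38.p6) from 250 bases before to 50 bases after each annotated start. The windows matched 8 of the 10 genes, with no entry for Nfkb1 or Relb. The motif was found in 4 of these 8, namely Nfkb2, Nfkbia, Tnfaip3 and Sod2, against 4.5% of all 32851 windows and 5.1% of the 27025 genes with a window. Nfkb2, which has 3 windows, held 5 distinct match positions, the closest of which overlap. The windows of Rela, Tnfaip2, Birc3 and Icam1 held no match, which says only that these letters are not in this window. The stretches below show the motif in the feedback and target genes, with 2 of the 5 positions of Nfkb2 and all of those of the other genes. They are on the strand of the gene, with the match in capitals and 10 bases on each side, or fewer where the annotated start is reached. The matches begin 39 bases before the first and 225 before the third Nfkb2 start, 29 before that of Nfkbia, 125 and 12 before that of Tnfaip3 and 83 before that of Sod2. These are RefSeq starts, and the second Nfkb2 match shown also begins at base 11 from the second Nfkb2 start. By the gene positions given below, which are from GENCODE, the matches of Nfkb2, Tnfaip3 and Sod2 lie inside the gene. That of Nfkbia lies before it. A match is a description of the letters and not a measured site.
Nfkb2, chr19:46304688-46304717, plus strand: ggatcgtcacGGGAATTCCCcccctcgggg
Nfkb2, chr19:46305695-46305724, plus strand: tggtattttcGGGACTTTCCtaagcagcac
Nfkbia, chr12:55492657-55492686, minus strand: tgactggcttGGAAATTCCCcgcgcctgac
Tnfaip3, chr10:19015516-19015545, minus strand: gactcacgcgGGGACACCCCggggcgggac
Tnfaip3, chr10:19015411-19015432, minus strand: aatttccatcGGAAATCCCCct
Sod2, chr17:13007746-13007775, plus strand: cggggcggacGGGGTTCCCCgaggcggggc

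Total counts ran from 6899347 to 19462115 with tamoxifen and from 16473902 to 36132316 with corn oil. Tamoxifen replicates 1 to 3 stood apart: across the tested genes, Pearson's r of log2 CPM was 0.921 to 0.963 between them, 0.732 to 0.878 in the other tamoxifen pairs and 0.806 to 0.841 between corn oil libraries. Counts of calls are therefore also given with these 3 taken as 1 sample and without them. Slc7a11, the gene to be deleted, ran from 5.90 to 19.3 normalised CPM in tamoxifen libraries and from 23.2 to 40.1 in corn oil libraries. Normalised CPM are read counts scaled to library size, with edgeR's TMM factors applied between libraries. The groups did not overlap, and the edgeR adjusted p was 0.311. Reads from exons that Cre leaves in place would still be counted for it. Keratins of ductal epithelium were abundant in both groups. Krt18 averaged 6473 ± 1706 normalised CPM with tamoxifen (SD, n = 6) and 6545 ± 3222 with corn oil (SD, n = 4). Krt19 averaged 3105 ± 1319 with tamoxifen and 4807 ± 1710 with corn oil (edgeR adjusted p 0.654). Log2 fold changes were above 0 for 1 of the 9 tested ductal markers and below 0 for 8, with a median of -0.39. Over all tested genes 49.3% were above 0. By Xist and Ddx3y, 1 of 6 tamoxifen libraries and 2 of 4 corn oil libraries were female. In such bulk libraries fewer cells of a type and less RNA per cell cannot be told apart.

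No gene of the 10 passed the test between tamoxifen and corn oil. The edgeR quasi-likelihood test, with Benjamini-Hochberg adjustment over all 13006 tested genes, gave adjusted p-values of 0.394 (Rela) to 0.998 (Relb). At an adjusted p under 0.05, 0 of 10 were called, against 0.0384% of all tested genes. At an unadjusted p under 0.05 there were 2, Rela and Icam1, both higher with tamoxifen, against 9.7% of all tested genes in either direction and 4.43% in the higher direction. DESeq2 called 0 of the 10, against 1.87% of all tested genes. Voom from limma, weighting libraries by quality, called 1, Rela, against 9.62%, so that 1 of 10 is near the background. Log2 fold changes were above 0 for 6 of the 10 genes, against 49.3% of all tested genes, and their median was 0.18, against -0.010 over all tested genes. Dropping corn oil replicate 2 brought that median to 0.089, dropping replicate 1 of the same group to 0.29, and dropping tamoxifen replicates 1 to 3 to 0.46. Tamoxifen and corn oil values overlapped for every one of the 10, while they did not overlap for 3.23% of all tested genes. With tamoxifen replicates 1 to 3 counted as 1 sample, 0 of the 10 had an unadjusted edgeR p under 0.05, against 5.55% of all genes tested in that fit. Without these 3 libraries there was 1, Nfkbia, against 4.62%. Without tamoxifen replicates 4 and 6 there was 1, Rela, against 18.3%.

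**Figure D1:**
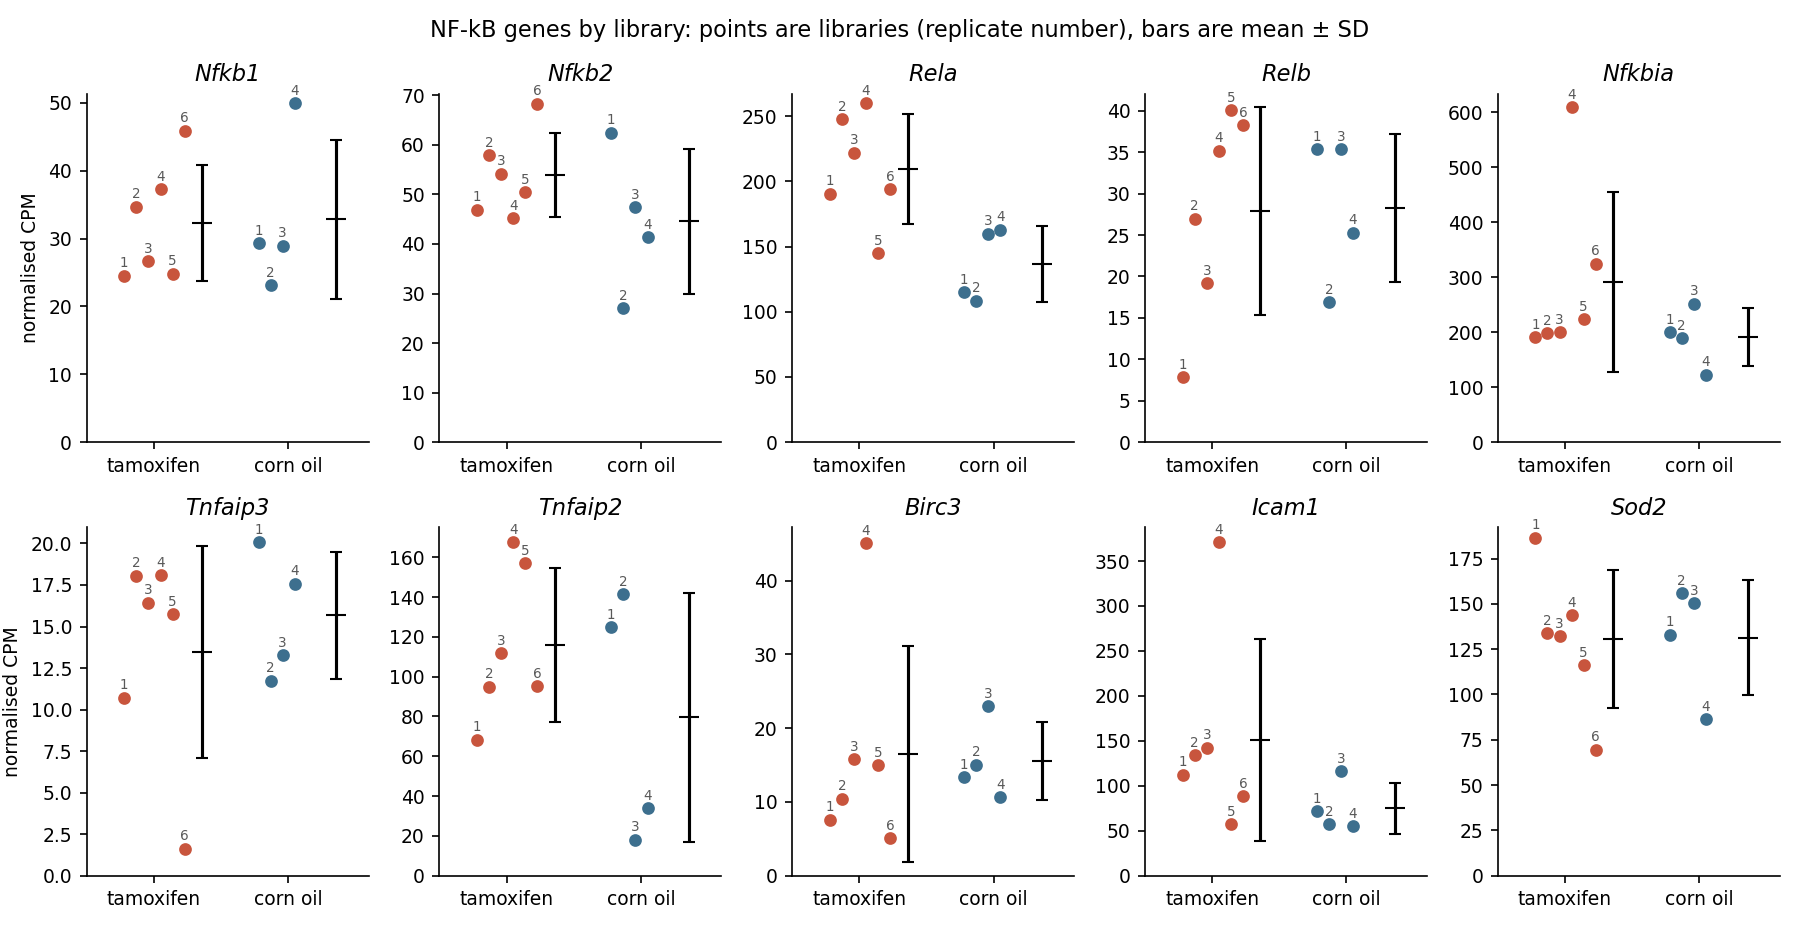
Normalised CPM of the 10 NF-kB genes in each tamoxifen library (red) and corn oil library (blue). Points carry the replicate number, and the bars give the mean ± SD of 6 tamoxifen and 4 corn oil libraries. Tamoxifen replicate 4 stands above all other libraries for Nfkbia at 610.0, Icam1 at 371 and Birc3 at 45.1.

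Of the canonical subunits, Rela had the lowest p of the 10 genes. Rela encodes p65, the subunit that carries the transactivation domain of the main canonical dimer, and lies on chromosome 19 at 5637483 to 5648130 of GRCm38. Rela had a lowest, median and highest value of 144.8, 208 and 259.9 normalised CPM in tamoxifen libraries, against 114.9, 108.6, 160.0 and 163 in corn oil replicates 1 to 4. Of the tamoxifen libraries 5 stood above every corn oil library, and replicate 5, at 144.8, stood below corn oil replicates 3 and 4. The log2 fold change was 0.62 (SE 0.24, 95% interval 0.11 to 1.13), with an unadjusted p of 0.0210 and an edgeR adjusted p of 0.394. Leaving out any 1 library kept it between 0.52 and 0.74. The unadjusted edgeR p was above 0.05 when corn oil replicate 1 (p 0.0613) or replicate 2 (p 0.0614) was dropped. Voom gave Rela a log2 fold change of 0.75 and an adjusted p of 0.0488, with weights of 1.69, 5.49 and 3.87 for tamoxifen replicates 1 to 3 and of 0.308 and 0.333 for replicates 4 and 6.

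Nfkb1 encodes p105, the precursor of p50, the DNA-binding partner of RelA, and lies on chromosome 3 at 135584655 to 135691547. It had a lowest, median and highest value of 24.6, 30.7 and 45.9 normalised CPM with tamoxifen, against 29.3, 23.1, 29.0 and 49.9 in corn oil replicates 1 to 4. Corn oil libraries held both the lowest and the highest of the 10 values. For Nfkb1 the log2 fold change was -0.023 (SE 0.33), with a 95% interval of -0.74 to 0.70 and an edgeR adjusted p of 0.993. The estimate without corn oil replicate 4 was 0.25.

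The alternative subunits are the precursor p100, encoded by Nfkb2 on chromosome 19 at 46304320 to 46312385, and RelB, encoded by Relb on chromosome 7 at 19606217 to 19629438. Nfkb2 had a lowest, median and highest value of 45.2, 52.3 and 68.3 normalised CPM with tamoxifen, against 62.4, 27.0, 47.4 and 41.4 in corn oil replicates 1 to 4. The tamoxifen libraries lay within a 1.51-fold range and the corn oil libraries within a 2.31-fold range, and only tamoxifen replicate 6 stood above them all. Nfkb2 had a log2 fold change of 0.27 (SE 0.28, 95% interval -0.34 to 0.89, edgeR adjusted p 0.836), which was 0.48 without corn oil replicate 1 and 0.096 without replicate 2. Exons of Nfkb2 share 299 bases with Psd and 531 bases with the non-coding AC114539.1, both on the opposite strand, and the kits do not mark strand, so reads of these stretches cannot be told apart.

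Relb had a lowest, median and highest value of 7.84, 31.1 and 40.03 normalised CPM with tamoxifen, against 35.3, 16.9, 35.4 and 25.3 in corn oil replicates 1 to 4. Tamoxifen replicate 1, with 90 reads of the gene, was the lowest of all 10 libraries, and tamoxifen replicate 5 the highest. Relb had a log2 fold change of -0.016 (SE 0.45), and its 95% interval ran from -0.99 to 0.95 (edgeR adjusted p 0.998). Without tamoxifen replicates 1 to 3 the estimate was 0.43. Corn oil replicate 2, the deepest library at 36132316 counts, held the lowest value of the 10 libraries for Nfkb1, Nfkb2 and Rela and the lowest of the corn oil group for Relb.

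Transcripts of the alternative and canonical subunits were compared as the log2 ratio of summed levels per kilobase, Nfkb2 and Relb over Nfkb1 and Rela. Such a ratio does not measure p100 processing or the release of dimers, and so not the activity of the routes. Rela made up most of the lower sum, at 68.3 with tamoxifen and 44.5 with corn oil, against 2.68 and 2.72 for Nfkb1. The ratio is therefore close to Nfkb2 plus Relb over Rela. A ratio within a library does not depend on scaling between libraries. Tamoxifen replicates 1 to 6 had log2 ratios of -2.39, -2.09, -2.15, -2.21, -1.21 and -1.44, against -0.81, -1.86, -1.49 and -1.88 in corn oil replicates 1 to 4. Tamoxifen replicates 1 to 4 stood below every corn oil library, and replicates 5 and 6 above all but 1 of them. The means were -1.91 ± 0.48 with tamoxifen (SD, n = 6) and -1.51 ± 0.50 with corn oil (SD, n = 4), a difference of -0.40 with an exact two-sided permutation p of 0.248 over 210 arrangements. Dropping corn oil replicate 1 left a difference of -0.17, and dropping tamoxifen replicates 1 to 3 left -0.11.

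**Figure D2:**
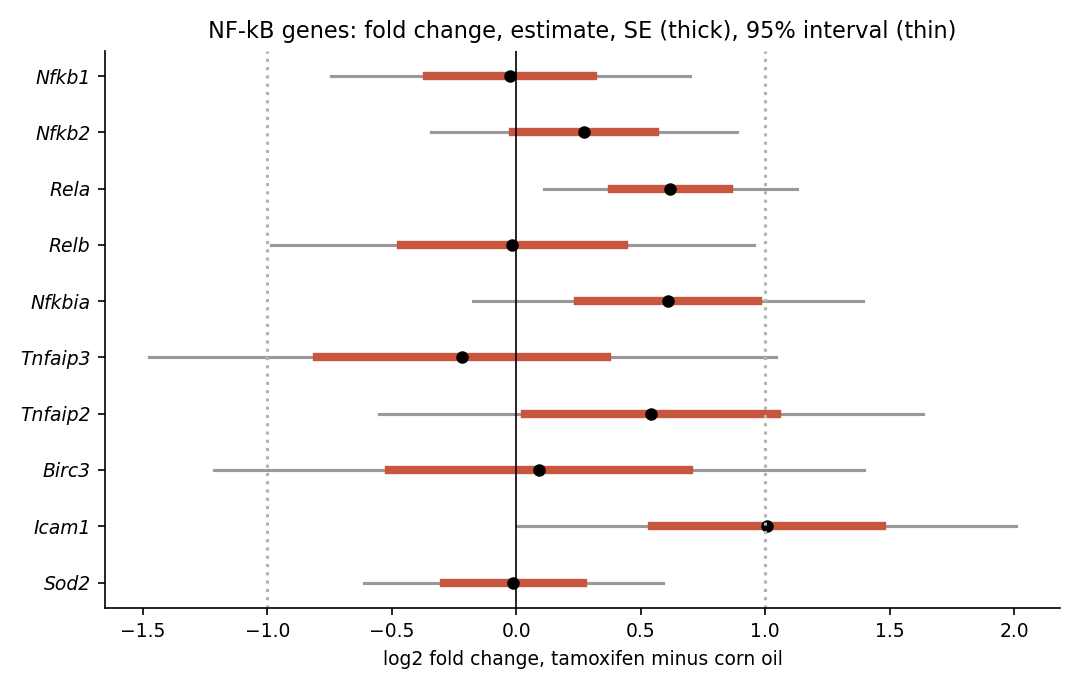
Log2 fold change of each NF-kB gene, tamoxifen minus corn oil, from edgeR over 6 tamoxifen and 4 corn oil libraries. Points are estimates, thick bars the SE, thin bars the 95% interval, and dotted lines mark a doubling and a halving. The intervals of Rela and Icam1 lie above 0, and no adjusted p is under 0.394.

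Neither feedback inhibitor passed the test. Nfkbia encodes IkB-alpha, which holds NF-kB dimers in the cytoplasm, and lies on chromosome 12 at 55489410 to 55492647. Nfkbia had a lowest, median and highest value of 191, 212 and 610.0 normalised CPM with tamoxifen, against 199.7, 189.7, 252 and 122.9 in corn oil replicates 1 to 4. Only tamoxifen replicate 4, at 610.0, and replicate 6, at 325, stood above every corn oil library. Nfkbia had a log2 fold change of 0.61 (SE 0.36, 95% interval -0.17 to 1.39, edgeR adjusted p 0.652), and it was 0.25 without tamoxifen replicate 4. Without tamoxifen replicates 1 to 3 it was 1.02, with an unadjusted edgeR p of 0.0243 and an adjusted p of 0.980.

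Tnfaip3 encodes A20, a ubiquitin-editing enzyme that ends signalling upstream of IKK, and lies on chromosome 10 at 19000910 to 19015657. It was the scarcest of the 10 genes per length. Its lowest, median and highest values were 1.63, 16.1 and 18.1 normalised CPM with tamoxifen, against 20.1, 11.7, 13.3 and 17.6 in corn oil replicates 1 to 4. The lowest value belonged to tamoxifen replicate 6, the shallowest library, where the gene had 10 reads, and corn oil replicate 1 held the highest of all 10. Its log2 fold change was -0.22 (SE 0.58), with a 95% interval of -1.48 to 1.04 and an edgeR adjusted p of 0.956, and without tamoxifen replicate 6 it was 0.015.

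The induced genes differed widely between libraries. Icam1 encodes an adhesion molecule that binds leukocyte integrins, and lies on chromosome 9 at 21015985 to 21028817. It had a lowest, median and highest value of 57.2, 123 and 371 normalised CPM with tamoxifen, against 71.8, 57.6, 116 and 55.0 in corn oil replicates 1 to 4. Tamoxifen replicates 2, 3 and 4 stood above every corn oil library, while replicate 5, at 57.2, lay at the bottom of the corn oil range. The log2 fold change of 1.01 was the largest of the 10 (SE 0.46, 95% interval 0.0041 to 2.01), with an unadjusted p of 0.0492 and an edgeR adjusted p of 0.513. Without tamoxifen replicate 4 it was 0.51. The unadjusted edgeR p was above 0.05 without tamoxifen replicate 2, 3 or 4 or corn oil replicate 1, 2 or 4, reaching 0.149, and with sex as a covariate it was 0.145. Exons of Icam1 share 511 bases with the antisense gene Gm47079, so the origin of reads from that stretch is uncertain.

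Birc3 encodes cIAP2, a ubiquitin ligase that binds TRAF adaptors and limits NIK and cell death, and lies on chromosome 9 at 7848699 to 7873186. It had a lowest, median and highest value of 5.07, 12.7 and 45.1 normalised CPM with tamoxifen, against 13.4, 15.1, 22.97 and 10.6 in corn oil replicates 1 to 4. Tamoxifen replicate 4 stood above every corn oil library and tamoxifen replicates 1, 2 and 6 below every one. Birc3 had a log2 fold change of 0.092 (SE 0.60, 95% interval -1.21 to 1.40, edgeR adjusted p 0.985), and without tamoxifen replicate 4 its sign turned, at -0.52.

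Tnfaip2, a gene induced by tumour necrosis factor whose product takes part in membrane protrusion, lies on chromosome 12 at 111442469 to 111455018. Tnfaip2 had a lowest, median and highest value of 68.3, 103 and 167.7 normalised CPM with tamoxifen, against 125, 142, 18.1 and 33.8 in corn oil replicates 1 to 4. The corn oil libraries fell into a high and a low pair, a 7.83-fold range. Every tamoxifen library stood above the low pair, and replicates 4 and 5 stood above the high pair as well. Tnfaip2 had a log2 fold change of 0.54 (SE 0.51, 95% interval -0.55 to 1.63, edgeR adjusted p 0.811). Dropping a corn oil library of the low pair, replicate 3 or 4, brought it to 0.21 or 0.29, and dropping one of the high pair, replicate 1 or 2, to 0.84 or 0.98. Exons of Tnfaip2 share 314 bases with the antisense gene Gm40578.

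Sod2 encodes the manganese superoxide dismutase of mitochondria and lies on chromosome 17 at 13006846 to 13040063. It had a lowest, median and highest value of 69.6, 133 and 187 normalised CPM with tamoxifen, against 133, 156, 150.5 and 86.2 in corn oil replicates 1 to 4. Tamoxifen libraries held both the lowest and the highest of the 10 values. Sod2 had a log2 fold change of -0.011 (SE 0.28), and its 95% interval of -0.61 to 0.59 lay within a doubling and a halving (edgeR adjusted p 0.998). Such intervals were found for 4 of the 10 genes, Nfkb1, Nfkb2, Relb and Sod2, while those of the other 6 reached a doubling or a halving.

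Levels per length ran in the same order in both groups. Normalised CPM per kilobase of annotated exon averaged 181 ± 102 with tamoxifen and 119 ± 33 with corn oil for Nfkbia (SD, n = 6 and n = 4). Rela followed with 68.3 ± 13.8 with tamoxifen and 44.5 ± 9.40 with corn oil, and then Icam1, Tnfaip2, Sod2, Nfkb2 and Relb. Birc3, Nfkb1 and Tnfaip3 were scarcest, with Tnfaip3 at 1.86 ± 0.88 with tamoxifen and 2.168 ± 0.53 with corn oil. From Icam1 downward, neighbours in this order differed by less than the larger SD of the pair in at least 1 group, except Relb and Birc3. The exon length used is the union over all annotated transcripts, which includes long isoforms of Nfkb1 and Sod2.

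**Figure D3:**
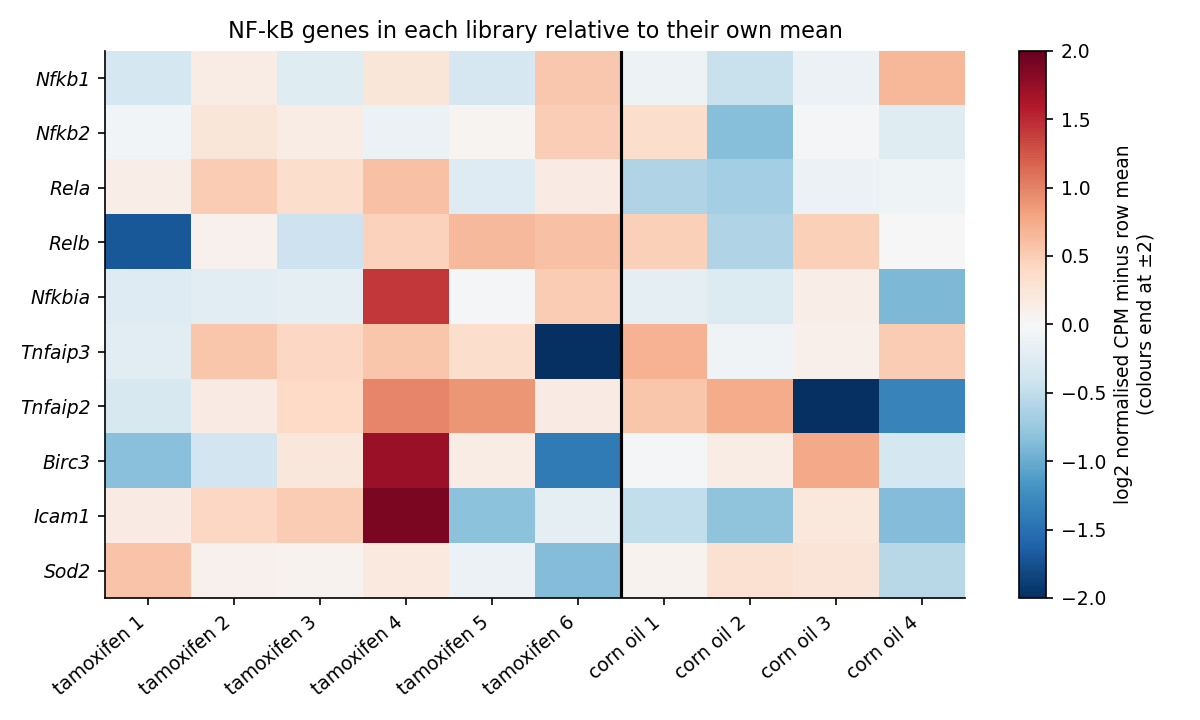
Log2 normalised CPM of each NF-kB gene in each library minus the mean of that gene over the 10 libraries. Columns are tamoxifen libraries on the left and corn oil libraries on the right. Tamoxifen replicate 4 is dark red for Birc3 and Icam1 and red for Nfkbia, and tamoxifen replicate 6 is dark blue for Tnfaip3 and blue for Birc3. Corn oil replicate 3 is dark blue for Tnfaip2, and tamoxifen replicate 1 is dark blue for Relb.

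Single libraries stood out in many of these genes. Tamoxifen replicate 4 held the highest value of all 10 libraries for 5 genes, Rela, Nfkbia, Tnfaip2, Birc3 and Icam1, and the lowest for 0. Tamoxifen replicate 6 held the lowest for 3, Tnfaip3, Birc3 and Sod2, and the highest for Nfkb2. Over all genes, voom gave tamoxifen replicates 4 and 6 its lowest weights, 0.308 and 0.333. How many of all tested genes had their extremes in these libraries, or varied more with tamoxifen, was not computed. The counts here are therefore not shown to be particular to the NF-kB genes. The coefficient of variation was larger with tamoxifen than with corn oil for 6 of the 10 genes, reaching 88.6% with tamoxifen against 34.1% with corn oil for Birc3, and 74.4% with tamoxifen against 37.6% with corn oil for Icam1. The reverse held for Tnfaip2, at 33.5% with tamoxifen and 78.7% with corn oil, and for Nfkb2, at 15.8% with tamoxifen and 32.9% with corn oil, and to a lesser degree for Nfkb1 and Rela.

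The summed levels of macrophage markers and of fibroblast markers were also highest in tamoxifen replicate 4. The summed level of the 10 macrophage markers in the table, of 11 listed, ran from 824 to 2200 normalised CPM with tamoxifen and from 950 to 1420 with corn oil. Tamoxifen replicate 4 held 2200, and the other tamoxifen libraries reached 1300. The most abundant of these markers, Cd14 and Lyz2, made up much of the sum, with Lyz2 at 830.4 in tamoxifen replicate 4. The 11 fibroblast markers summed to 228 to 1880 normalised CPM with tamoxifen and 204 to 743 with corn oil, again with tamoxifen replicate 4 highest at 1880 and replicate 6 next at 1360. Log2 fold changes were above 0 for 3 of 10 tested macrophage markers and 10 of 10 tested fibroblast markers. No gene of either list in the table was at 0 in all libraries. The part of these cells in the levels of Nfkbia, Birc3 and Icam1 was not tested.

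The macrophage marker Cd14, a co-receptor for bacterial lipopolysaccharide, was at 699 to 936 normalised CPM with tamoxifen and 249 to 584 with corn oil, with an edgeR adjusted p of 0.227. Lyz2, the macrophage lysozyme, averaged 289 ± 283 with tamoxifen (SD, n = 6) and 388 ± 101 with corn oil (SD, n = 4). The most abundant fibroblast markers, the matrix genes Sparc and Col3a1, averaged 375 ± 293 and 128 ± 85.2 with tamoxifen and 196 ± 97.7 and 76.0 ± 60.9 with corn oil.

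The 18 immediate early and heat shock genes, known to be induced by handling of tissue, summed to 2990 to 5990 normalised CPM with tamoxifen and 2640 to 3670 with corn oil. Their most abundant members were the transcription factors Klf6, at 789 to 2015 normalised CPM with tamoxifen and 283 to 692 with corn oil (edgeR adjusted p 0.242), and Junb, at 622 to 1003 with tamoxifen and 583 to 1018 with corn oil (edgeR adjusted p 0.805). Of the 18, log2 fold changes were above 0 for 13, against 49.3% of all tested genes. At an unadjusted edgeR p under 0.05 there were 3, Egr1, Dusp1 and Klf6. All 3 were higher with tamoxifen, against 4.43% of all tested genes in that direction. The lowest edgeR adjusted p of the list was 0.148. The part of these 18 genes in the NF-kB values was not tested.

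Markers of other cell types were at low levels. Not all listed markers were in the table, with 6 of 9 for neutrophils, 6 of 9 for lymphocytes and 5 of 7 for acinar cells. Neutrophil markers summed to 5.9 to 130 normalised CPM with tamoxifen and 3.2 to 160 with corn oil, with S100a8 and S100a9 averaging 13.5 ± 20.2 and 10.2 ± 14.4 with tamoxifen and 25.6 ± 33.6 and 23.4 ± 33.2 with corn oil. Endothelial markers, led by Cldn5 and Eng, summed to 6.71 to 45.4 with tamoxifen and 2.87 to 39.0 with corn oil. The lymphocyte list, led by Ptprc, summed to 1.82 to 12.4 with tamoxifen and 2.01 to 12.6 with corn oil. Ptprc, which is not particular to lymphocytes among leukocytes, made up most of this sum. It was at 1.61 to 11.8 with tamoxifen and 1.69 to 12.6 with corn oil. Acinar markers, led by Cela1 and Bhlha15, summed to 33.1 to 86.8 with tamoxifen and 17.2 to 208 with corn oil. Cela1 made up nearly all of this sum, at 33.1 to 86.8 with tamoxifen and 17.2 to 204 with corn oil. Ductal markers, led by Krt18 and Krt19, summed to 13900 to 24800 with tamoxifen and 14100 to 30100 with corn oil.

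**Figure D4:**
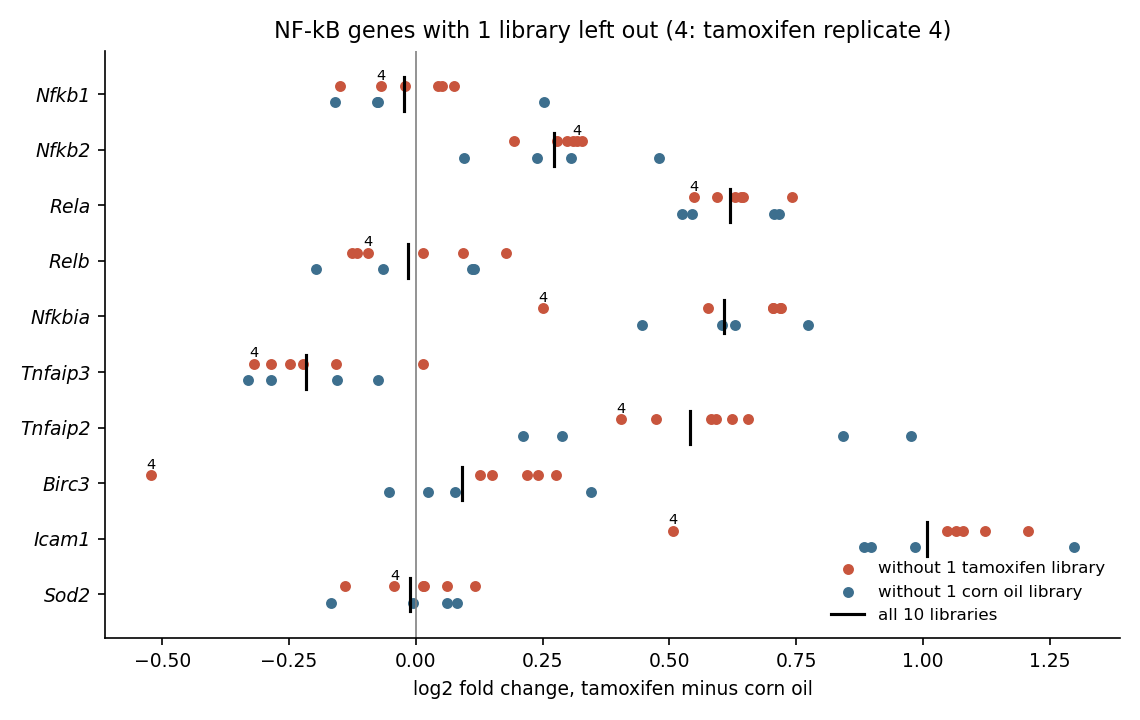
Log2 fold change of each NF-kB gene, tamoxifen minus corn oil, with each library left out in turn. Red points leave out 1 tamoxifen library, blue points 1 corn oil library, and black bars use all 10. The point marked 4 leaves out tamoxifen replicate 4, which brings Icam1 to 0.51, Nfkbia to 0.25 and Birc3 to -0.52.

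Among genes whose mean log2 CPM reached 3, those most like Nfkbia were found by the Euclidean distance between standardised log2 CPM profiles over the 10 libraries, where 0 means identical profiles. The nearest of 8754 genes were Sfrs18 at 0.988, the taurine transporter Slc6a6 at 1.08, Zyg11b at 1.12, Dcaf10 at 1.22 and the transcription factor Foxp1 at 1.23, against a median distance of 4.30. Each of these 5 had its highest value in tamoxifen replicate 4. That peak, like the short distances, follows from how the 5 were chosen, since Nfkbia itself is highest in that library. Slc6a6, for example, had 1004 normalised CPM there, against 274 to 561 in the other tamoxifen libraries and 228 to 435 in corn oil libraries. Among the other NF-kB genes Icam1 was nearest to Nfkbia, at 2.09, then Birc3 at 2.99 and Rela at 3.14, while Tnfaip3, the other feedback inhibitor, was farthest at 4.72.

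The wider pathway was described by 113 further genes grouped by role, of which 102 were tested. None passed an adjusted edgeR p of 0.05, 3 had an unadjusted p under 0.05, all higher with tamoxifen, and the share of 2.94% compares with 9.7% of all tested genes. Their median log2 fold change was 0.028. DESeq2 called 1 of these genes, or 0.98%, against 1.87% of all tested genes. It was Bcl2l1, which was higher with tamoxifen. Voom called 9, or 8.82%, against 9.62% of all tested genes. Of these 9, Bcl2l1 and Gadd45b were higher with tamoxifen, and 7 were lower: Tnfrsf11a, Bcl2, Cxcl16, Mmp9, Tnip3, Nfkbib and Bcl2a1b. Tamoxifen and corn oil values overlapped for all 102, while they did not overlap for 3.23% of all tested genes. In what follows, means are given ± SD over 6 tamoxifen and 4 corn oil libraries.

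Upstream, the ligands had 6 tested genes of 11, with a median log2 fold change of -0.34. This median was -0.088 without tamoxifen replicate 2, -0.75 without tamoxifen replicate 6, 0.26 without tamoxifen replicates 1 to 3 and -2.15 with voom. Il1a, an interleukin 1 released by stressed epithelium, averaged 9.07 ± 11.6 normalised CPM with tamoxifen and 22.1 ± 21.1 with corn oil (edgeR adjusted p 0.782). Tnf, the classical ligand of the canonical route, averaged 3.32 ± 2.61 with tamoxifen and 5.65 ± 3.81 with corn oil (edgeR adjusted p 0.860). The 12 tested receptors had a median of -0.37, which was 0.13 without corn oil replicate 1 and otherwise stayed below 0 with 1 library left out. Il1r1, the interleukin 1 receptor, was at 4.41 to 25.0 normalised CPM with tamoxifen and 9.81 to 51.6 with corn oil, for a difference of -1.16 on the log2 scale (SE 0.61, edgeR adjusted p 0.590). Tnfrsf11a, which encodes the receptor RANK, was at 0.49 to 27.3 with tamoxifen and 16.1 to 33.5 with corn oil, for a difference of -1.22 (SE 0.74, edgeR adjusted p 0.663).

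The 24 adaptors and kinases of the canonical route had a median of 0.11 (0.0017 to 0.23 with 1 library left out). Irak1, a kinase below the interleukin 1 and Toll-like receptors, averaged 124 ± 15.1 normalised CPM with tamoxifen and 86.2 ± 26.1 with corn oil (log2 fold change 0.53, SE 0.25, edgeR adjusted p 0.516). Sharpin, a subunit of the linear ubiquitin ligase that builds the IKK platform, averaged 37.8 ± 10.1 with tamoxifen and 56.7 ± 10.3 with corn oil (log2 fold change -0.58, SE 0.29, edgeR adjusted p 0.562). The 6 genes listed under the alternative route were Map3k14, Traf3, Birc2, Traf1, Tbk1 and Ikbke, not all of which act only in that route. Their median was 0.014 (-0.12 to 0.27 with 1 library left out). Their lowest p-values belonged to the kinase Tbk1, at 28.1 ± 13.02 with tamoxifen and 21.9 ± 11.2 with corn oil, and to the adaptor Traf1, at 5.28 ± 8.29 with tamoxifen and 2.64 ± 2.88 with corn oil (edgeR adjusted p 0.895 and 0.905).

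Among the remaining regulators, Rel, the subunit of lymphoid cells, averaged 4.89 ± 5.42 normalised CPM with tamoxifen and 3.22 ± 1.53 with corn oil (edgeR adjusted p 0.910). The 8 other inhibitors had a median of -0.19 (-0.25 to -0.056 with 1 library left out). Nfkbiz, a nuclear IkB protein that is itself induced by NF-kB, was at 29.0 to 230 with tamoxifen and 11.3 to 57.4 with corn oil, with tamoxifen replicate 4 highest and the others of its group at up to 59.0 (edgeR adjusted p 0.649). Nfkbib, which encodes IkB-beta, averaged 51.3 ± 22.9 with tamoxifen and 70.0 ± 10.3 with corn oil (edgeR adjusted p 0.709). The 10 other ubiquitin editors that were tested had a median of 0.018 (-0.26 to 0.14 with 1 library left out), with Rnf11 at 96.8 ± 21.1 with tamoxifen and 74.0 ± 4.73 with corn oil and Tax1bp1 at 425 ± 216 with tamoxifen and 586 ± 346 with corn oil (edgeR adjusted p 0.651 and 0.782). Both encode partners of A20.

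**Figure D5:**
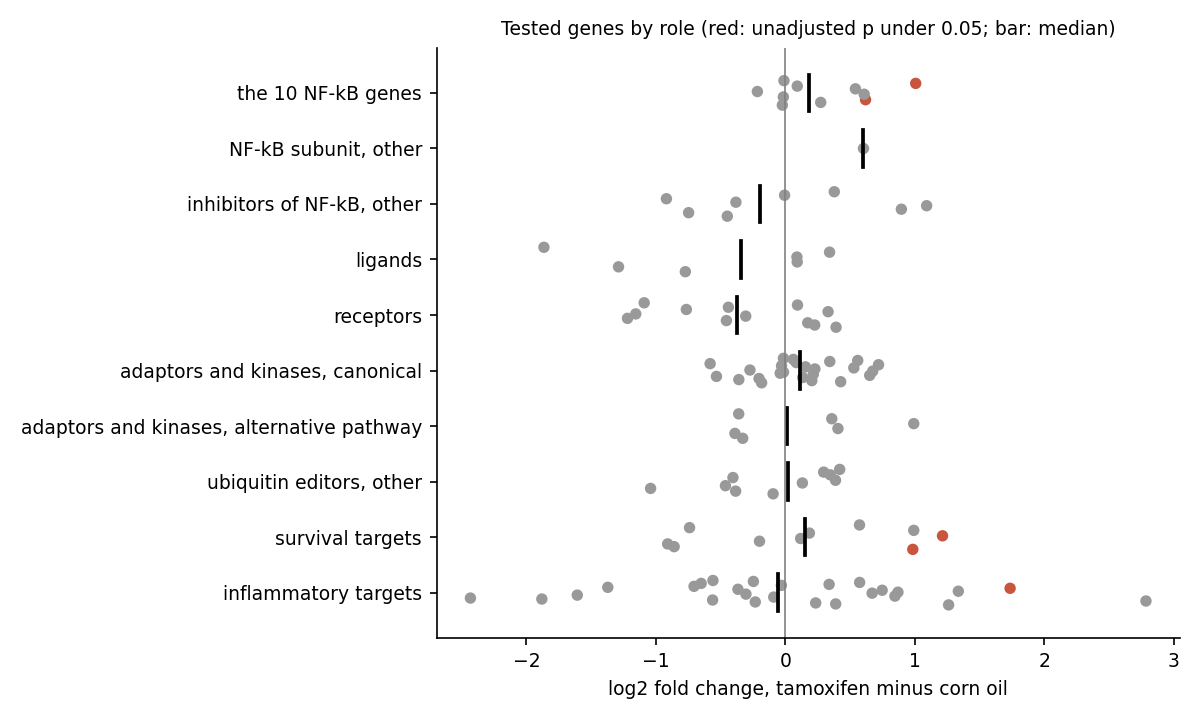
Log2 fold change, tamoxifen minus corn oil, of every tested gene by its role in the NF-kB pathway. Points are genes, red where the unadjusted edgeR p is under 0.05, and bars are medians. The red points are Rela and Icam1 among the 10 NF-kB genes, Bcl2l1 and Gadd45b among survival targets and Vcam1 among inflammatory targets.

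Downstream, the 10 survival targets had a median log2 fold change of 0.15, and 2 had an unadjusted p under 0.05, both higher with tamoxifen, against 4.43% of all tested genes in that direction. The median turned to -0.15 without tamoxifen replicate 6. Bcl2l1, which encodes the anti-apoptotic protein Bcl-xL, averaged 272 ± 69.1 normalised CPM with tamoxifen and 138 ± 48.6 with corn oil, for a log2 difference of 0.98 (SE 0.28, edgeR adjusted p 0.250). DESeq2 called this gene, at an adjusted p of 0.0396. Gadd45b, a stress-induced inhibitor of JNK signalling, averaged 134 ± 64.8 with tamoxifen and 57.7 ± 11.5 with corn oil, for a log2 difference of 1.21 (SE 0.37, edgeR adjusted p 0.295).

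The 26 tested inflammatory targets had a median of -0.060 and spread from -2.43 to 2.79. The median ran from -0.22 without tamoxifen replicate 6 to 0.38 without corn oil replicate 1. An unadjusted edgeR p under 0.05 was found for 1 gene, which was higher with tamoxifen. This compares with 9.7% of all tested genes in either direction and 4.43% in the higher direction. Vcam1, an adhesion molecule related in function to Icam1, averaged 75.9 ± 57.2 normalised CPM with tamoxifen and 22.8 ± 14.4 with corn oil, for a log2 difference of 1.74 (SE 0.70, unadjusted p 0.0283, edgeR adjusted p 0.437). It was highest in tamoxifen replicate 5, at 184, the library in which Icam1 was lowest of the tamoxifen group. Ccl20, a chemokine, was at 0 to 8.95 with tamoxifen and 0.12 to 33.4 with corn oil (log2 fold change -2.43, SE 1.25, edgeR adjusted p 0.570).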

How the data were processed

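The table deposited by the authors holds raw counts for 10 laser-captured libraries, with genes as symbols. Per the labels' protocols, SMART-seq v4 cDNA went into Nextera XT libraries. The submitters' processing notes name mm10 and the tools featureCounts 1.5.0-p3, STAR 2.5.2b and bcl2fastq 2.17. For annotation, strand setting and multiply mapped reads the choice is not given in the sources used here. Counts entered the test unchanged, in edgeR 4.0.16 (R 4.3.3): filterByExpr, TMM factors and the quasi-likelihood F test without covariates, at an FDR of 0.05. Normalised CPM is TMM-scaled. The SE is the absolute log2 fold change divided by the square root of F. Log2 CPM used a prior count of 2. Alternatives included DESeq2 1.42.0 and voom from limma 3.58.1, tested on all genes. The ratio test used scipy 1.17.1, and its smallest possible p is 0.00952. The script for this fit was also run on simulated counts as a check. Figures used matplotlib 3.10.9. Gene positions and exon lengths are those of GENCODE M21 (GRCm38, which mm10 is a copy of).

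The 10 genes and all lists were chosen with earlier results of these data known. All 10 were named, with Slc7a11 as the check of labels. Of each pathway list, genes past the FDR were to be named, and where none passed, the 2 genes with the smallest p whose mean log2 CPM reached 0. Of each marker list the 2 most abundant were named, except 1 lymphocyte marker that is not reported here, and the 5 genes nearest to Nfkbia were sought where mean log2 CPM reached 3. Genes singled out beyond that rule were chosen after their values were seen.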

Additional observations from a re-analysis of the deposited data

Results flagged for a closer look

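Each group of libraries was searched for 1 library far from the rest, over 52 results and 104 groups. There were 17 such cases, in 5 of the 10 libraries, all of them high values. The rule flags about 1 in 20 groups by chance only for independent, normally distributed values. Here the values were not on a log scale and some results share genes, so the number of cases cannot be set against that rate. Tamoxifen replicate 4 was highest of its group for Nfkbia (610.0 normalised CPM, others 191 to 325), Icam1 (371, others 57.2 to 142) and Birc3 (45.1, others 5.07 to 15.8). It was also highest for Nfkbiz (230, others 29.0 to 59.0), Tax1bp1 (859, others 285 to 408), Lyz2 (830.4, others 58.1 to 295) and the summed macrophage markers (2200, others 824 to 1301).

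In the shallowest library, tamoxifen replicate 6, the highest values of the group were those of Nfkbib (97.4 normalised CPM, others 37.6 to 48.5), Traf1 (21.7, others 0.17 to 5.28), S100a8 (53.8, others 1.31 to 12.7), S100a9 (38.7, others 1.21 to 10.1), Klf6 (2015, others 789 to 1106) and the summed neutrophil markers (129.7, others 5.90 to 31.4). Tamoxifen replicate 5 was highest for Vcam1 (184, others 13.1 to 70.6) and Ccl20 (8.95, others 0 to 2.94), and tamoxifen replicate 1 for Bhlha15 (3.40, others 0 to 0.63). Among corn oil libraries the 1 case was Tnf in replicate 1 (11.3, others 3.12 to 4.12).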

How the results depend on the processing

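Rela, Nfkb2, Nfkbia, Tnfaip2 and Icam1 kept a positive log2 fold change in all 20 alternatives. Of the 10 genes, 1 passed the FDR with voom (Rela), and 0 with 1 library left out. Genes past the FDR numbered 5 as reported, 243 with DESeq2, 1251 with voom, 77 without tamoxifen replicates 4 and 6, and 0 with sex as a covariate, with tamoxifen replicates 1 to 3 counted as 1 sample or with these 3 left out. With 1 library left out they ran from 0 to 11 (894 to 1659 at an unadjusted p under 0.05). Of the 10 genes, those with an unadjusted p under 0.05 numbered 1 with upper-quartile factors (9.7% of all genes), with a filter of 5 CPM in 4 libraries (10.6%), with sex as a covariate (9.2%), without tamoxifen replicates 1 to 3 or without replicates 4 and 6. They numbered 0 with replicates 1 to 3 as 1 sample, and 0 to 2 with 1 library left out (6.99% to 12.8% of all genes). The sign turned in 32 of 200 values, all of Nfkb1, Relb, Tnfaip3, Birc3 and Sod2. Nfkb1 was at 0.19 with sex as a covariate, 0.077 with replicates 1 to 3 as 1 sample and 0.14 without them, and Relb at 0.097, 0.25 and 0.43. Tnfaip3 was at 0.051 with voom. Birc3 was at -0.28 with voom, -0.38 with sex as a covariate and -0.345 without replicates 4 and 6. Sod2 was at 0.0059 with RLE factors, 0.0061 with DESeq2, 0.073 with voom and 0.11 without replicates 4 and 6. With 1 library left out Nfkb1 ran from -0.16 to 0.25, Relb from -0.20 to 0.18, Tnfaip3 from -0.33 to 0.015, Birc3 from -0.52 to 0.34 and Sod2 from -0.17 to 0.12. The cause was not tested. The ratio of subunits kept its sign, from -0.55 to -0.17 with 1 library left out (exact permutation p 0.111 to 0.571). Of 180 list medians 2 moved beyond the spread between libraries. No paired analysis was possible because the labels pair no libraries or animals between the groups. Replicate numbers here follow the order of the samples within each group, and equal numbers do not mark a pair.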
